A study of Mus musculus with 89 samples.

Results

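Lungs of mice given CuO PEG were set against lungs of mice given core CuO at the same dose of 10 μg, in animals whose last challenge was PBS. Core CuO is copper oxide nanoparticles with no added surface group, and CuO PEG is copper oxide nanoparticles carrying polyethylene glycol. The samples were chosen by their labels alone, as every array sample of material CuO PEG (n = 4) or CuO (n = 3) with dose 10 and PBS challenge, which gave 7 of the 89 samples in the series. All 89 samples in 26 groups were fitted together, because the control samples on each set of slides are what ties the materials to each other.

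The mice were female BALB/c aged 6 to 8 weeks. All groups compared here, controls included, had been sensitized with ovalbumin (OVA) in alum. Particles or plain PBS were given by oropharyngeal aspiration on 4 consecutive days, and lungs were taken 24 h after the last administration, after they had been lavaged. The control group (PBS, n = 7) received PBS without particles and PBS as challenge. Other groups used below were CuO PEG and core CuO at 2.5 and 40 μg with PBS challenge (n = 3 each), CuO NH3, an aminated surface, at 10 μg with PBS challenge (n = 4), CuO COOH, a carboxylated surface, at 10 μg with PBS challenge (n = 3), and CuO PEG and core CuO at 10 μg with OVA challenge (n = 3 each). RNA was pooled from 2 samples for every array sample. Doses were matched on the mass of whole material, of which copper was a smaller part in CuO PEG than in core CuO. CuO PEG was supplied as an aqueous suspension and the other materials as powders. Surface, copper mass and form of supply therefore cannot be told apart here.

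Copper oxide particles dissolve in acid compartments of the cell and release copper ions. Cells meet free copper with metallothioneins, which bind the metal, and meet oxidant stress with enzymes under the transcription factor NRF2, such as heme oxygenase. Injured lung makes acute phase proteins in its epithelium, recruits monocytes and neutrophils through chemokines, and repairs itself by cell division. Polyethylene glycol is a hydrophilic polymer used to limit the contact of a particle with proteins and cells.

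The measurement was the intensity of 2-colour Agilent mouse arrays, read as the channel that carried each sample. The median foreground intensity ran from 63 to 89 in the CuO PEG samples and from 100.5 to 170 in the core CuO samples. Spots well above background made up 51.1% to 58.8% with CuO PEG and 64.9% to 65.7% with core CuO. The materials did not overlap in either measure, and the part of signal strength in their difference was not tested. No spot was saturated. Core CuO lay on slides 1, 2 and 3 with 3 PBS and 4 OVA controls, and CuO PEG on slides 4, 5 and 6 with 4 PBS and 4 OVA controls. No slide held both materials, so their difference rests on these controls. Values per sample are given below as adjusted log2 intensity, which is the normalized log2 intensity after the fitted effects of dye, slide and array position were taken out. CuO PEG replicates 1, 2 and 3 shared arrays with PBS replicates 4, 6 and 7 in that order. CuO PEG replicate 4 shared an array with CuO NH3 replicate 4 at 10 μg. Core CuO samples shared arrays with samples of core CuO at 40 μg, and the fit had no term for the array itself. CuO PEG replicate 1 lay nearest to core CuO within its group for several genes below. Values without this sample are given for Mt2, Cxcl13 and counts of called genes, and not for the other genes.

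Of 22911 genes tested, 244 (1.06%) differed between CuO PEG and core CuO at an adjusted p under 0.05 with a log2 difference over 0.58 in size. Lower expression with CuO PEG was the more frequent direction, with 204 genes lower (0.89% of all genes) and 40 higher (0.175%). Among the lower genes 43 differed by more than 1 on the log2 scale, against 2 of the higher genes. The median log2 difference over all genes tested was 0.00. These calls depended on how arrays were scaled: with each array centred on its median in place of quantile normalization, 6 genes passed, all lower. Leaving out core CuO replicate 3 left 77 genes, and leaving out CuO PEG replicate 1 gave 438.

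Among called genes the 3 largest differences were in the acute phase genes Orm1 and Orm2 and in the chemokine Cxcl13. Acute phase proteins are secreted proteins that rise in tissue injury and inflammation. Of 17 acute phase genes measured, 6 were lower with CuO PEG and 0 were higher, and the median log2 difference of the 17 was -0.96, and it was -1.38 with array as a fixed term, -0.61 with slide as a random term and -0.52 with dye only. The 6 were Orm1, Orm2, Saa1, Lcn2, Itih4 and Lbp. Orm1, which encodes the plasma carrier protein orosomucoid, gave 8.36, 8.04, 8.08 and 7.47 in the 4 CuO PEG samples and 10.14, 10.90 and 10.96 in the 3 core CuO samples. In the PBS controls it ran from 6.11 through a median of 6.73 to 7.41. Every CuO PEG sample lay below every core CuO sample and above every control. The difference was -2.68 on the log2 scale (SE 0.478, adjusted p = 0.00154), 6.41-fold lower with CuO PEG. Its close paralogue Orm2 was also lower (-2.25, SE 0.471, adjusted p = 0.00554), although probes of the pair may bind transcripts of both.

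Lrg1, a secreted leucine-rich glycoprotein that rises in the acute phase, had the smallest adjusted p of the genes named. It gave 13.10, 12.68, 12.68 and 12.18 with CuO PEG, and 14.06, 14.99 and 14.71 with core CuO, against 12.11 to 12.94 (median 12.74) in the PBS controls. CuO PEG replicate 1 lay just above the controls, its other 3 samples lay within their range, and core CuO samples lay above both groups. The difference was -1.93 (SE 0.274, adjusted p = 4.4e-05), 3.81-fold lower with CuO PEG. Orm1, Orm2 and Lrg1 were lower with CuO PEG in each of the 33 settings run for them. Other calls held in fewer of these settings: of the genes named below, Saa1 passed in 20, Mmp3 in 22, Cxcl15 in 21, Clec4d in 16, Il1r2 in 15, Foxj1 in 14 and Pcolce2 in 14, where its difference ran from 0.17 to 1.55.

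Serum amyloid A and lipocalin 2 showed a different position relative to the controls. Saa1, an apolipoprotein of the acute phase, gave 10.93, 10.64, 10.84 and 10.27 with CuO PEG and 12.29, 12.79 and 12.70 with core CuO, and 8.21 to 9.44 (median 8.55) in PBS controls. The difference was -1.92 (SE 0.531, adjusted p = 0.0413), with the CuO PEG samples between both other groups and no overlap. Lcn2, which encodes a siderophore-binding protein of epithelium and neutrophils, gave 13.84, 13.88, 13.79 and 13.24 with CuO PEG and 14.47, 15.58 and 15.29 with core CuO. Its controls ran from 11.57 to 12.67 (median 12.12), and its difference was -1.42 (SE 0.368, adjusted p = 0.0273). Itih4, a protease inhibitor subunit (-1.36, SE 0.232, adjusted p = 0.00121), and Lbp, which binds bacterial lipopolysaccharide (-0.96, SE 0.176, adjusted p = 0.00224), completed the called acute phase genes. Saa3 (-1.71, adjusted p = 0.19) and Saa2 (-1.10, adjusted p = 0.305) did not pass, and the fibrinogen genes Fga (0.03) and Fgb (0.00) stood near 0.

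Genes of mitosis formed the list with the highest count. Of 26 genes measured, 19 were lower with CuO PEG, 0 were higher, all 26 log2 differences were negative, and the median was -0.84. The CuO PEG and core CuO samples did not overlap for 24 of the 26, against 21.8% of all genes tested. Ccnb2, a cyclin that drives entry into mitosis, gave 10.20, 9.58, 9.82 and 9.47 with CuO PEG and 10.88, 10.80 and 10.88 with core CuO, and 8.83 to 9.68 (median 9.17) in PBS controls. Its difference was -1.09 (SE 0.211, adjusted p = 0.00298). Mki67, whose protein coats mitotic chromosomes and marks dividing cells, gave 10.33, 9.81, 10.27 and 9.69 with CuO PEG and 11.11, 11.001 and 11.01 with core CuO, and 8.73 to 9.63 (median 8.97) in PBS controls. For Mki67 the CuO PEG samples lay between the other groups, and the difference was -1.01 (SE 0.208, adjusted p = 0.00512). Others lower were the centromere motor Cenpe (-1.14), the survivin gene Birc5 (-1.11), the kinases Plk1 (-1.11), Aurka (-0.98) and Cdk1 (-0.97), the spindle protein Tpx2 (-0.99), the topoisomerase Top2a (-0.98) and the ribonucleotide reductase subunit Rrm2 (-1.02), with adjusted p-values from 0.00154 to 0.0102. The 7 that did not pass included Foxm1 (-0.39, adjusted p = 0.128) and Kif11 (-0.31, adjusted p = 0.488). The count of 19 was 0 with arrays centred on the median, 1 with array as a fixed term, 12 with PBS samples only, 9 without CuO PEG replicate 2, 10 without CuO PEG replicate 4 or core CuO replicate 3, and 23 without CuO PEG replicate 1, while the list median stayed between -1.09 and -0.75 in every setting.

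**Figure D1:**
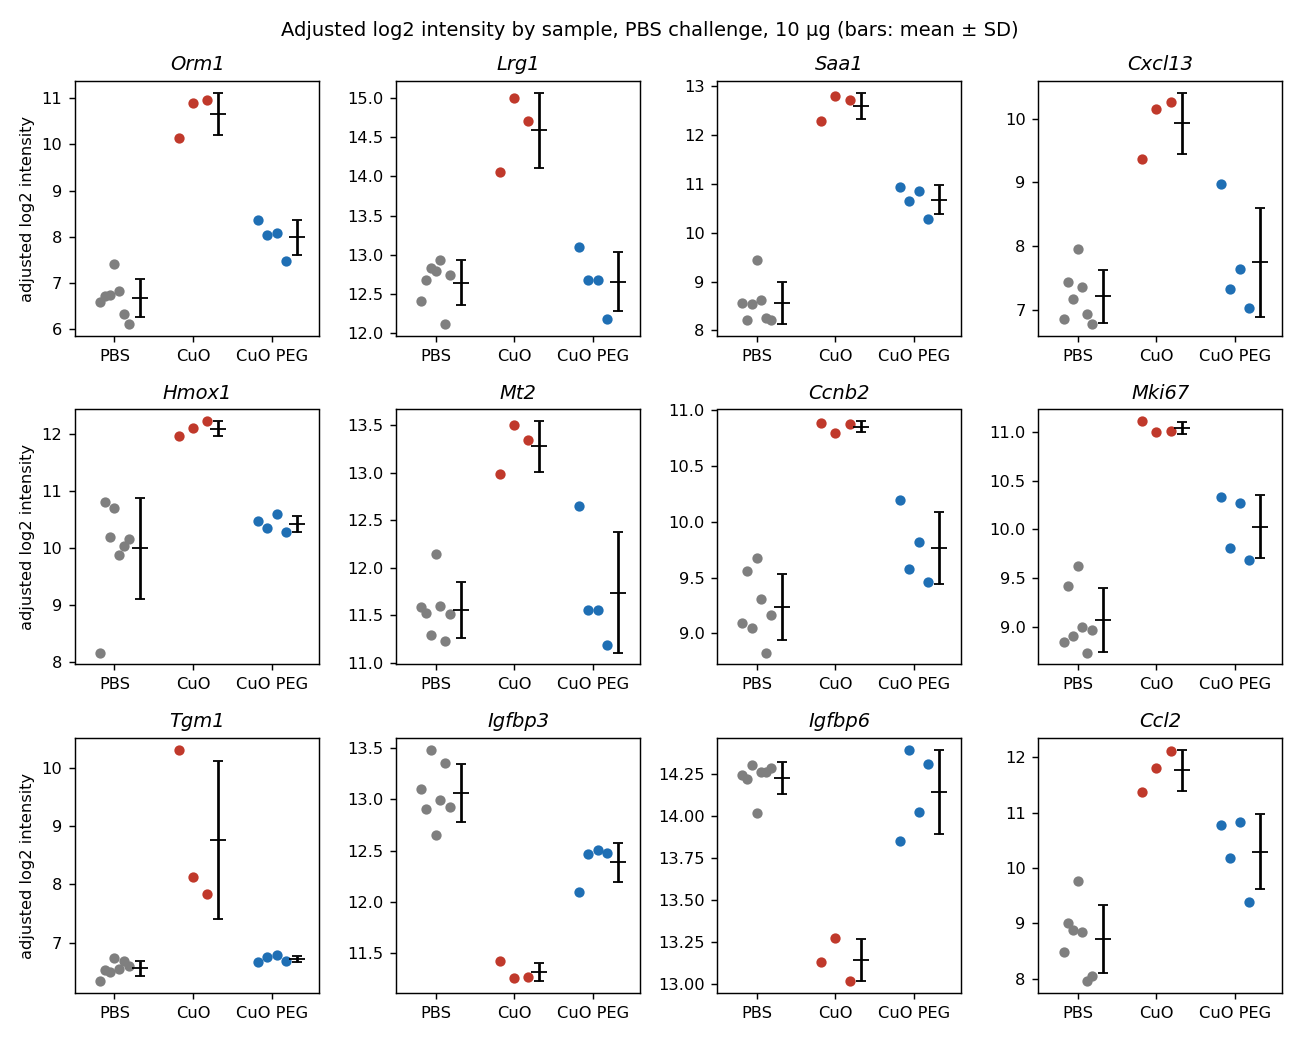
Adjusted log2 intensity (vertical axis, a panel per gene) of each sample for 12 genes in PBS controls (n = 7), core CuO at 10 μg (n = 3) and CuO PEG at 10 μg (n = 4), where points are samples and bars the mean ± SD. For Orm1 the CuO PEG samples, at 7.47 to 8.36, lie between the controls and core CuO, whereas for Igfbp3 they lie above core CuO at 12.10 to 12.51.

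Because the mitotic genes moved together, the 250 bases before the RefSeq start of Ccnb2 (chr9:70421555-70421804, minus strand) and Mki67 (chr7:135716380-135716629, minus strand) are shown, 5′ to 3′ on the gene's strand, in build GRCm38.p6 from RefSeq. Capitals mark CCAAT (the CCAAT box) and TTTGAA (the cell cycle homology region, CHR) on either strand, 2 motifs of cell cycle promoters.
Ccnb2: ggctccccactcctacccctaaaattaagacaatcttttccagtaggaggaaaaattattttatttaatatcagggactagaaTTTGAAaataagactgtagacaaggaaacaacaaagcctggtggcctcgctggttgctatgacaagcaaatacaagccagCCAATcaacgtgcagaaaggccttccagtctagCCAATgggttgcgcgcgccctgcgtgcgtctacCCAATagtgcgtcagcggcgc
Mki67: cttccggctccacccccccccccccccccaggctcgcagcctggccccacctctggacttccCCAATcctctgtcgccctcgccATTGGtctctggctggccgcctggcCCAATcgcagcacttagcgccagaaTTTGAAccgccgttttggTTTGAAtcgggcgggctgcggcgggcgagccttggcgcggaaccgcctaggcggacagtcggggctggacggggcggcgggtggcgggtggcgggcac
Ccnb2 held 1 CHR and 3 CCAAT motifs in this window, and Mki67 held 2 CHR and 3 CCAAT motifs. The window of Birc5, a called mitotic gene searched in the same way, held 0 matches to either motif. Of the 19 called mitotic genes 15 had a window, and 6 of these (40%) held both motifs, as did 25 of 161 windows of the 204 lower genes (15.5%), 1 of 31 windows of the higher genes (3.23%) and 978 of 18077 windows of all genes tested (5.41%). CCAAT alone was found in 13 of the 15, or 86.7%, against 35.8% of all windows. A match is a description of letters and not of binding.

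The metallothionein genes Mt1 and Mt2 and heme oxygenase were lower with CuO PEG, while the remaining genes of copper handling and of the NRF2 response mostly did not pass. Mt2, a metallothionein that binds copper and zinc, gave 12.65, 11.56, 11.55 and 11.19 with CuO PEG and 12.99, 13.50 and 13.35 with core CuO. In PBS controls it ran from 11.24 through a median of 11.52 to 12.14. CuO PEG replicate 1 lay above every control, and the other 3 CuO PEG samples lay within or just below the range of the controls. The difference was -1.54 (SE 0.339, adjusted p = 0.00827), 2.90-fold lower with CuO PEG, and it was -1.97 without CuO PEG replicate 1. Mt1, its neighbour and paralogue, gave 10.70, 10.18, 9.96 and 10.06 against 11.01, 11.29 and 11.11, a difference of -0.91 (SE 0.229, adjusted p = 0.0233). Of 15 copper handling genes these 2 were lower and 0 were higher, and the list median was -0.09, with the third metallothionein measured, Mt3, at -0.05 (adjusted p = 0.948) and ceruloplasmin Cp at -0.47 (adjusted p = 0.00907), under the fold threshold. The copper importer Slc31a1 stood at 0.19 (adjusted p = 0.237). The count of 2 was 1 when CuO PEG replicate 2, 3 or 4, core CuO replicate 2 or 3 or PBS replicate 3 was left out.

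Metallothionein promoters carry metal response elements, the binding motif of the metal-sensing factor MTF1. The 250 bases before the RefSeq start of Mt2 (chr8:94172368-94172617, plus strand, GRCm38.p6) are shown with capitals marking matches to TGCACNC or TGCGCNC on either strand.
Mt2: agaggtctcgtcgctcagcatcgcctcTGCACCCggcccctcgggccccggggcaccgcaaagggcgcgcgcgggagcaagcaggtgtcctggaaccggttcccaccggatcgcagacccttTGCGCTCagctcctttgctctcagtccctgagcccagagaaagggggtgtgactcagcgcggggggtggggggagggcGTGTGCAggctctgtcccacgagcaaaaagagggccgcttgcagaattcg
There were 3 matches in this window and 1 in that of Mt1. At least 1 match was found in 24.3% of all 18077 windows, and in 30.4% of the windows of the 204 lower genes and 16.1% of those of the higher genes. For the called mitotic genes it was 6 of 15 windows (40%). The windows end at the annotated RefSeq start, and neither other starts nor bases after the start were searched.

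Hmox1, the inducible heme oxygenase, gave 10.47, 10.35, 10.60 and 10.28 with CuO PEG and 11.97, 12.10 and 12.23 with core CuO, and 8.15 to 10.82 (median 10.16) in PBS controls. The CuO PEG samples lay inside the range of the controls. Its difference was -1.67 (SE 0.417, adjusted p = 0.0215), 3.19-fold lower with CuO PEG. Gclc, the catalytic subunit of the enzyme that limits glutathione synthesis, was lower (-0.66, SE 0.15, adjusted p = 0.0101). They were the 2 lower genes of 24 NRF2 targets measured, with 0 higher and a list median of -0.13; Slc7a11 (-0.42, adjusted p = 0.267) and Gstm1 (0.53, adjusted p = 0.163) lay on opposite sides of 0. Heat shock genes gave 0 calls of 13, although all 13 log2 differences were negative (median -0.21), and Hspa1a stood at -1.17 (adjusted p = 0.322).

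Over the 3 chemokine lists 1 gene passed. Cxcl13, which attracts B cells, gave 8.98, 7.32, 7.64 and 7.04 with CuO PEG and 9.37, 10.14 and 10.26 with core CuO, and 6.77 to 7.95 (median 7.17) in PBS controls. CuO PEG replicate 1 stood above the controls and the other 3 within them. The difference was -2.18 (SE 0.553, adjusted p = 0.0247), 4.53-fold lower, and -2.77 without CuO PEG replicate 1. The ligands of the monocyte receptor CCR2 had a larger spread between samples. Ccl2 gave 10.78, 10.19, 10.84 and 9.38 with CuO PEG and 11.38, 11.80 and 12.12 with core CuO, and 7.95 to 9.76 (median 8.85) in PBS controls. The CuO PEG samples all lay below core CuO, with replicate 4 inside the range of the controls. The difference was -1.47 (95% confidence interval -2.52 to -0.43) and did not pass (adjusted p = 0.135), nor did Ccl7 (-1.47, adjusted p = 0.176) or Ccl12 (-1.15, adjusted p = 0.133). None of the 5 CCR2 genes was called (median -1.15) and none of the 8 genes of neutrophil chemokines and growth factors (median -0.68), where Cxcl5 stood at -1.75 (adjusted p = 0.123) and Cxcl1 at -1.11 (adjusted p = 0.204). Of 15 other chemokine genes 1 was lower and 0 higher (median -0.38).

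Of 18 pro-inflammatory cytokine and NF-kB feedback genes, 2 were lower (median -0.15). Il33, an alarmin of epithelium and endothelium, gave 9.24, 9.38, 9.42 and 9.24 with CuO PEG and 9.97, 10.37 and 10.24 with core CuO, and 8.81 to 9.32 (median 9.07) in PBS controls. The difference was -0.87 (SE 0.226, adjusted p = 0.0273). The other was the lymphocyte co-stimulator Tnfrsf9 (-0.89, SE 0.201, adjusted p = 0.00987). Tnf stood at -0.36 (adjusted p = 0.532), the type 2 cytokine Il13 at 0.20 (adjusted p = 0.638) and the eotaxin Ccl11 at 0.53 (adjusted p = 0.504). On these arrays Il13 ran from 5.61 to 6.09 in PBS controls and from 5.66 to 6.02 in OVA controls. The study's PCR found it raised by OVA, so the array value for Il13 is of limited use. Interferon-stimulated genes gave 0 calls of 18 with a median of -0.76, and core CuO replicate 3 stood highest of its group for Oas1a (13.33, against 11.96 and 12.21).

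Markers of leukocytes were measured in whole lung tissue, where fewer cells of a type and less RNA per cell cannot be told apart. Of 20 markers of monocytes and recruited macrophages 1 was lower, the lipopolysaccharide co-receptor Cd14 (-1.19, SE 0.251, adjusted p = 0.00573), and the list median was -0.62. Mean levels of that list over its genes were 9.76 to 10.19 in CuO PEG samples and 10.25 to 10.63 in core CuO samples. Of 18 neutrophil markers 2 were lower, the decoy receptor Il1r2 (-1.18, SE 0.332, adjusted p = 0.0462) and the lectin Clec4d (-1.01, SE 0.285, adjusted p = 0.0467), whereas the calprotectin genes S100a8 (-0.25) and S100a9 (-0.15) stood near 0. No marker of alveolar macrophages (20 measured, median 0.19), eosinophils (8, median 0.19), T cells (15, median 0.15), B cells (10), plasma cells (7) or NK cells (9) passed in either direction. The part of cell numbers in the differences above was not tested.

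Epithelial and matrix genes added single calls. Tgm1, the transglutaminase of stratifying epithelium, gave 6.67, 6.75, 6.78 and 6.69 with CuO PEG, within or just above the controls (6.34 to 6.73, median 6.56), and 10.31, 8.13 and 7.84 with core CuO. Core CuO replicate 1 stood far above the other 2, and the difference of -2.03 (SE 0.36, adjusted p = 0.00154) was -0.88 without it (adjusted p = 0.0436). Slc26a4, the anion exchanger pendrin of airway epithelium, gave 9.52, 10.03, 9.47 and 9.28 with CuO PEG and 11.50, 11.39 and 11.22 with core CuO. It ran from 7.85 to 9.13 (median 8.39) in PBS controls, and its difference was -1.79 (SE 0.439, adjusted p = 0.0198). Spp1, which encodes osteopontin (-1.53, SE 0.377, adjusted p = 0.0202), and the stromelysin Mmp3 (-0.98, SE 0.263, adjusted p = 0.035) were the 2 lower genes of 20 in the matrix list, whose median was -0.24, and Rgs16, a regulator of G protein signalling, was also lower (-1.42, SE 0.272, adjusted p = 0.0029).

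Of the goblet cell list 0 of 10 passed although all 10 differences were negative (median -1.04), with the mucin Muc5b at -1.44 (adjusted p = 0.0783) and Clca1 at -2.37 (adjusted p = 0.319). The ciliated cell list gave 1 call of 12, the master regulator of motile cilia Foxj1 (-0.65, SE 0.185, adjusted p = 0.0463), and the alveolar type 2 list 1 of 12, the lung chemokine Cxcl15 (-0.61, SE 0.161, adjusted p = 0.0329). Club cell (8), alveolar type 1 (9), fibroblast and smooth muscle (12), erythrocyte (10) and platelet (8) markers gave 0 calls. Cholesterol synthesis gave 1 lower gene of 21, the squalene epoxidase Sqle (-0.70, SE 0.158, adjusted p = 0.01), and 0 of 7 targets of the aryl hydrocarbon receptor passed.

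Higher expression with CuO PEG involved fewer genes and smaller differences. Igfbp3, the main carrier of insulin-like growth factors in plasma, gave 12.10, 12.47, 12.51 and 12.48 with CuO PEG and 11.42, 11.26 and 11.27 with core CuO, and 12.65 to 13.49 (median 12.997) in PBS controls. The CuO PEG samples lay between the core CuO samples and the controls. The difference was 1.07 (SE 0.23, adjusted p = 0.00632), 2.10-fold higher with CuO PEG. Igfbp6, a binding protein with preference for insulin-like growth factor 2, gave 13.85, 14.39, 14.03 and 14.31 against 13.14, 13.27 and 13.02, with controls at 14.02 to 14.31 (median 14.26). Its CuO PEG samples lay around the controls, all above core CuO, and its difference was 1.00 (SE 0.187, adjusted p = 0.00239). Mylip, a ubiquitin ligase for the LDL receptor (0.80, adjusted p = 0.00907), the angiopoietin-like gene Angptl2 (0.74, adjusted p = 0.0216), the collagen processing enhancer Pcolce2 (0.80, adjusted p = 0.0424), Ms4a4d (0.86, adjusted p = 0.00505) and the clock repressor Cry2 (0.68, adjusted p = 0.0204) were also higher. Cry2 was the 1 call among 18 clock genes, whose median was 0.23.

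Nars2, the mitochondrial asparaginyl-tRNA synthetase, rested on a single sample: CuO PEG replicate 2 gave 8.81 and the other CuO PEG samples 7.44, 7.38 and 7.38, against 7.01, 6.78 and 6.72 with core CuO. Its difference of 0.92 (SE 0.227, adjusted p = 0.0206) became 0.36 without replicate 2 (adjusted p = 0.28). Endothelial markers gave 0 calls of 14, yet all 14 differences were positive (median 0.36) and the groups did not overlap for 11 of them, against 21.8% of all genes tested; Cldn5, a tight junction claudin, stood at 0.51 (adjusted p = 0.0907). Mean levels over the endothelial list were 12.06 to 12.24 with CuO PEG, 11.73 to 11.80 with core CuO and 11.97 to 12.41 in PBS controls.

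**Figure D2:**
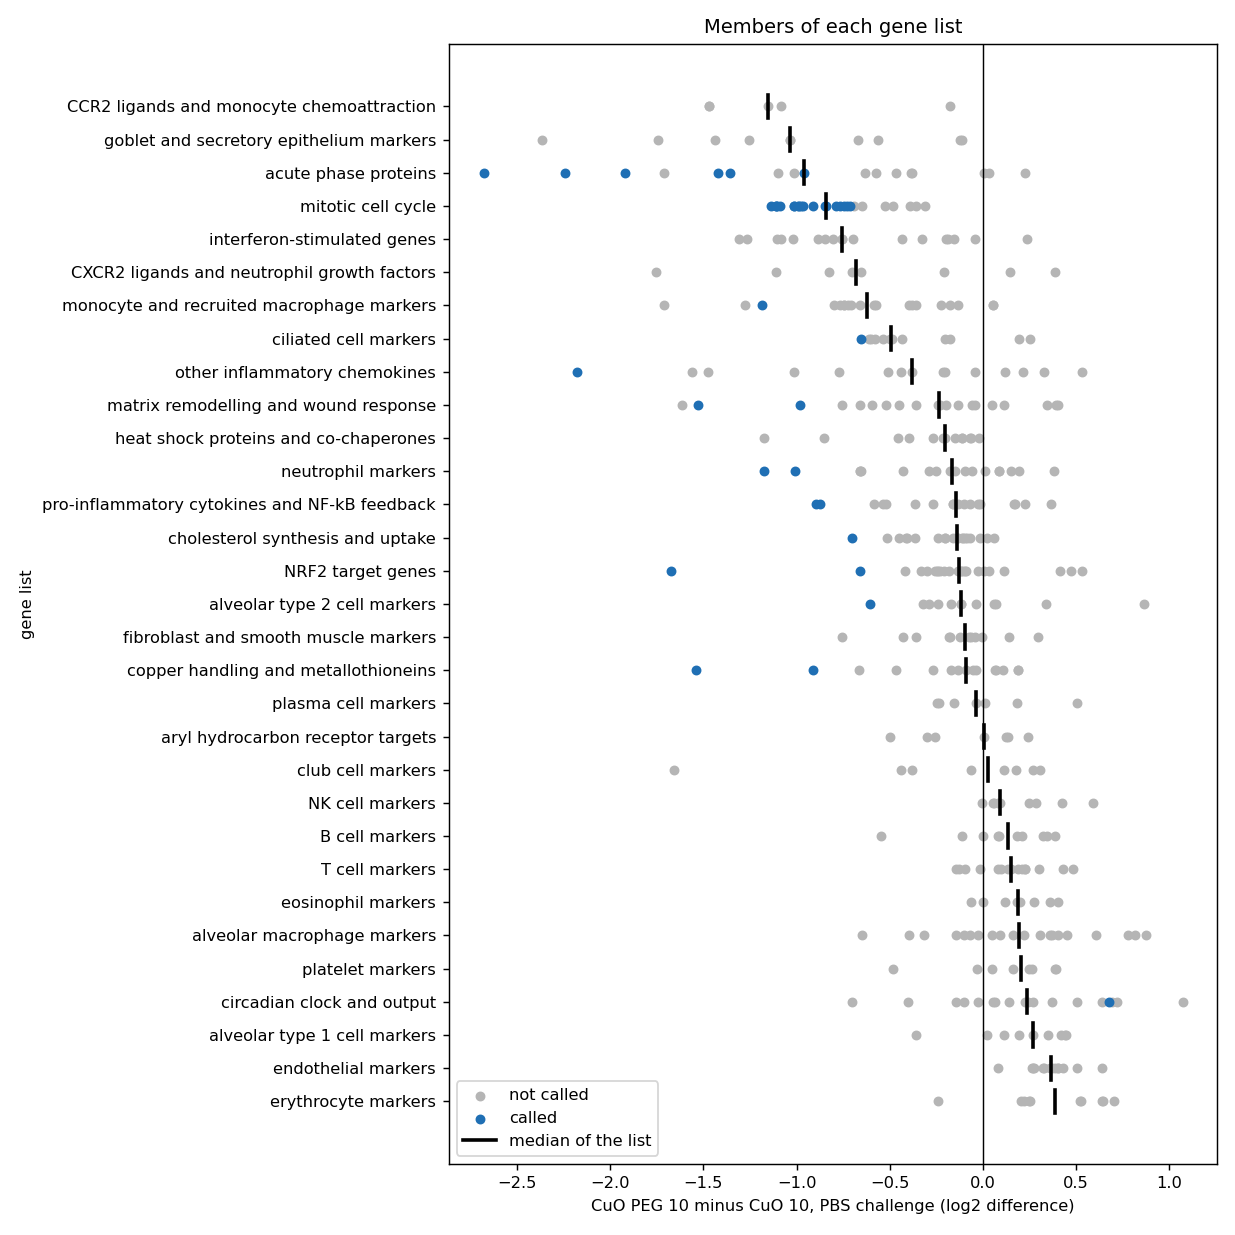
Log2 difference, CuO PEG minus core CuO at 10 μg with PBS challenge, of each measured member of the gene lists (horizontal axis), a row per list, with called members in blue, others in grey and the list median as a tick. Mitotic genes all lie below 0 with 19 of 26 called, whereas the 14 endothelial genes all lie above 0 with 0 called.

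Set against PBS controls, core CuO changed more genes than CuO PEG did at the same mass. With core CuO 838 genes (3.66%) differed from the 7 controls, 607 higher (2.65%) and 231 lower (1.01%). With CuO PEG it was 131 genes (0.572%), 111 higher (0.484%) and 20 lower (0.0873%). Both comparisons share the control samples, so their values are given side by side. Over the 204 genes lower with CuO PEG than with core CuO, the median log2 difference from PBS was 1.08 for core CuO and 0.29 for CuO PEG, and over the 40 higher genes it was -0.64 and 0.03. These medians follow in part from the choice of the genes.

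Acute phase genes held 12 of 17 above the controls with core CuO (median 1.32) and 7 of 17 with CuO PEG (median 0.49). For mitotic genes it was 25 of 26 (median 1.49) and 16 of 26 (median 0.63). Orm1 differed from PBS by 3.99 with core CuO and 1.31 with CuO PEG, Saa1 by 4.04 and 2.12, and Mki67 by 1.97 and 0.95. Other genes stood near the controls with CuO PEG: Lrg1 differed by 1.94 with core CuO and 0.01 with CuO PEG, Mt2 by 1.72 and 0.18, Hmox1 by 2.11 and 0.44, and Tgm1 by 2.195 and 0.16. CCR2 genes were above the controls in 4 of 5 with core CuO (median 2.00) and in 2 of 5 with CuO PEG (median 0.92), monocyte and macrophage markers in 12 of 20 (median 1.08) and 8 of 20 (median 0.50), and heat shock genes in 11 of 13 (median 0.74) and 6 of 13 (median 0.59). Interferon-stimulated genes were above the controls in 7 of 18 with core CuO and 0 of 18 with CuO PEG.

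**Figure D3:**
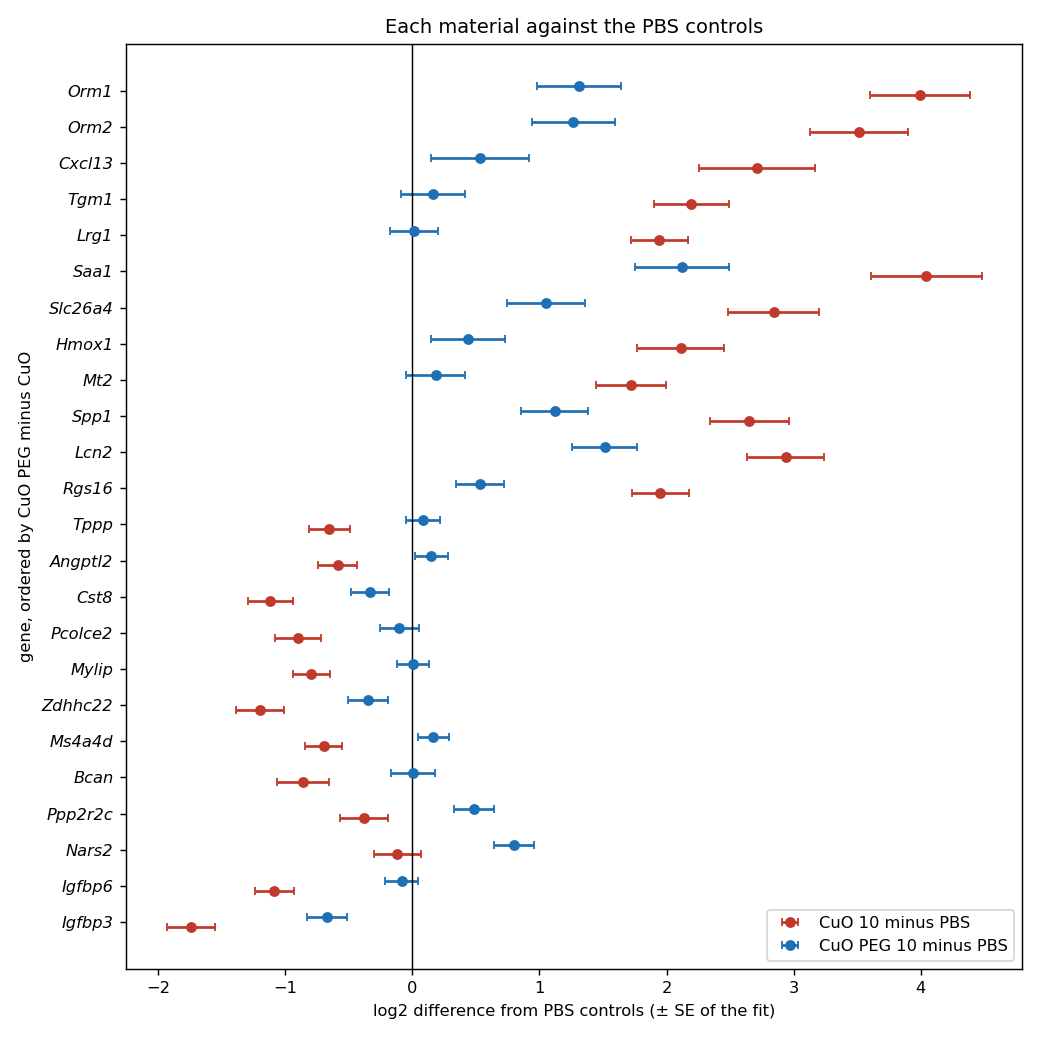
Log2 difference from PBS controls (horizontal axis) ± SE of 24 genes for core CuO and CuO PEG at 10 μg, ordered by the difference of CuO PEG from core CuO. Orm1 stands at 3.99 with core CuO and 1.31 with CuO PEG, Lrg1 at 1.94 and 0.01, and Igfbp3 at -1.74 and -0.67.

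Angptl4, a lipoprotein lipase inhibitor singled out after its values were seen, lay on the other side of the controls. It gave 12.13, 11.79, 11.67 and 12.24 with CuO PEG and 13.62, 13.50 and 12.99 with core CuO, and 12.31 to 12.94 (median 12.74) in PBS controls. The CuO PEG samples were all below the controls and the core CuO samples all above them. CuO PEG differed from core CuO by -1.41 (adjusted p = 0.00596) and from PBS by -0.72 (adjusted p = 0.047), and core CuO differed from PBS by 0.70 (adjusted p = 0.051).

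As the materials differed in copper per mass, the lower dose of core CuO is given beside them, without a comparison of unequal doses. Core CuO at 2.5 μg changed 551 genes against PBS (2.4%), 443 of them higher (1.93%). Over the 204 genes its median difference from PBS was 0.84. Orm1 differed from PBS by 3.71 with core CuO at 2.5 μg, Lrg1 by 1.89, Hmox1 by 2.23, Mt2 by 1.73, Mki67 by 1.58 and Igfbp3 by -1.16. The mitotic list had 24 of 26 genes above the controls and a median of 1.11 at this dose, and the acute phase list 13 of 17 and 1.15.

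Surfaces were also compared with each other at 10 μg. CuO PEG differed from CuO NH3, which lay on the same slides, in 477 genes (2.08%), 142 higher (0.62%) and 335 lower (1.46%). CuO NH3 differed from core CuO in 37 genes (0.161%), 12 higher (0.0524%) and 25 lower (0.109%), and CuO COOH from core CuO in 4 (0.0175%), 3 higher (0.0131%) and 1 lower (0.00436%). These comparisons share samples. Against CuO NH3 the 204 genes had a median of -0.69 and the 40 genes 0.53, and against core CuO the same genes had medians of -0.12 and 0.18 in CuO NH3 and of 0.03 and -0.03 in CuO COOH. Against CuO NH3, 22 of 26 mitotic genes (median -0.91) and 7 of 17 acute phase genes (median -0.56) were lower with CuO PEG, and Orm1 stood at -2.11 and Igfbp3 at 1.35. Lower against CuO NH3 were also 4 of 5 CCR2 genes, 4 of 8 genes of neutrophil chemokines and growth factors, 8 of 18 neutrophil markers, 9 of 20 monocyte and macrophage markers and 6 of 21 cholesterol genes. Higher against CuO NH3 were 6 of 13 heat shock genes, 9 of 18 clock genes, 6 of 10 erythrocyte markers (median 0.89) and 5 of 20 alveolar macrophage markers. Interferon-stimulated genes had a median of 0.10 against CuO NH3 and -0.76 against core CuO.

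At the other doses the materials were compared in separate animals, tied to each other by the same controls. At 2.5 μg 425 genes differed (1.86%), 98 higher (0.428%) and 327 lower (1.43%), and at 40 μg 1005 genes (4.39%), 461 higher (2.01%) and 544 lower (2.37%). Mitotic genes were lower with CuO PEG in 22 of 26 at 2.5 μg (median -0.99), 19 of 26 at 10 μg and 24 of 26 at 40 μg (median -0.78). Acute phase genes were lower in 11, 6 and 4 of 17 at the 3 doses in that order, and 1 was higher at 40 μg. CCR2 genes were lower in 2 of 5 at 2.5 μg (median -1.35) and in 0 at 40 μg (median -0.04). Orm1 differed by -3.89 at 2.5 μg and -1.82 at 40 μg. Neutrophil markers were lower in 2 of 18 at 2.5 μg and in 6 at 40 μg, and matrix genes in 4 and 9 of 20. Markers of other cells were higher with CuO PEG at 40 μg: 13 of 15 for T cells (median 1.02), 6 of 10 for B cells (median 0.91), 4 of 9 for NK cells (median 0.56), 7 of 10 for erythrocytes (median 1.46), 5 of 20 for alveolar macrophages (median 0.45) and 4 of 12 for alveolar type 2 cells (median 0.32), as were 7 of 18 clock genes. At 2.5 μg 0 of these were higher except 1 NK cell marker, and the part of cell numbers in the differences at 40 μg was not tested. Whether the differences themselves changed with dose was not tested.

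After OVA challenge no gene passed the thresholds between CuO PEG and core CuO at 10 μg (0 of 22911, 0%, limma with Benjamini-Hochberg adjustment), and 1404 genes had an unadjusted p under 0.05. With n = 3 in each group, a lack of calls does not show a lack of difference. The median log2 difference of the 204 genes was -0.09 in these samples, and that of the mitotic list 0.12. The difference between challenges was tested itself and passed for 42 genes (0.183%), of which 34 had a higher CuO PEG minus core CuO difference after OVA (0.148%) and 8 a lower one (0.0349%). Among the named genes these were Lrg1 (1.55, SE 0.349, adjusted p = 0.0413), Tpx2 (1.03, SE 0.226, adjusted p = 0.037), Mki67 (1.18, SE 0.265, adjusted p = 0.0413), Tgm1 (1.94, SE 0.46, adjusted p = 0.0486) and Igfbp3 (-1.28, SE 0.294, adjusted p = 0.0419). The Tgm1 value includes the PBS difference, which shrank without core CuO replicate 1. Many named genes were chosen for large PBS differences, a choice that favours challenge differences of the opposite sign. Orm1 differed by -1.01 after OVA, and its challenge difference did not pass (1.67, adjusted p = 0.264). The count of 42 was 0 without any of 5 single samples, among them CuO PEG replicates 2 and 4, and 216 without replicate 2 of core CuO with OVA.

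**Figure D4:**
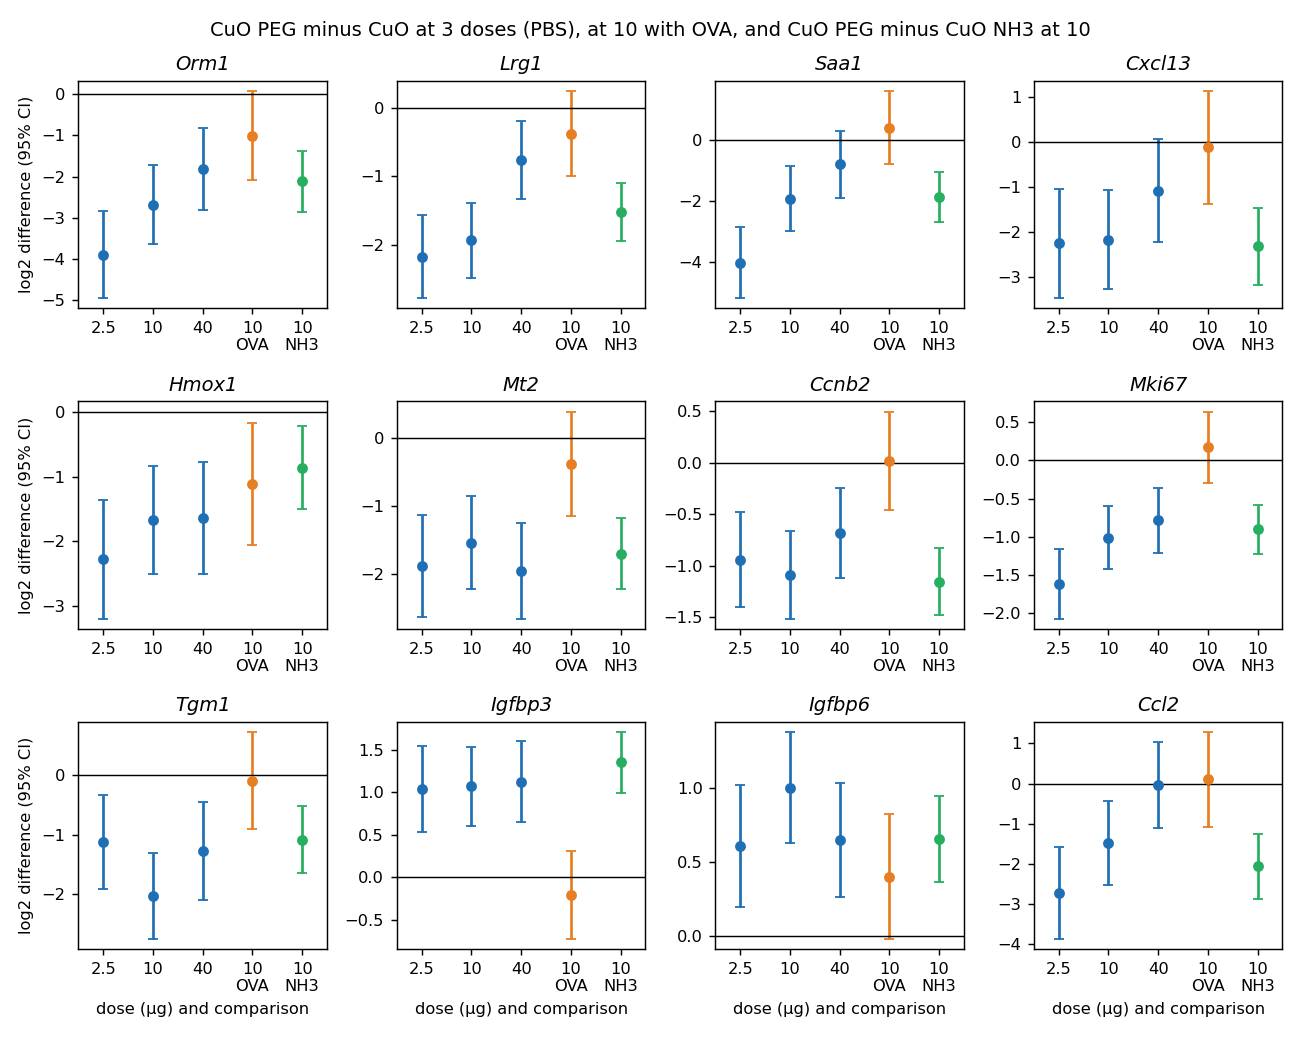
Log2 difference with 95% confidence interval (vertical axis) of 12 genes for CuO PEG minus core CuO at 2.5, 10 and 40 μg with PBS challenge, at 10 μg with OVA challenge, and for CuO PEG minus CuO NH3 at 10 μg. Orm1 stands at -3.89, -2.68 and -1.82 at the 3 doses and at -1.01 after OVA.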

How the data were processed

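Total RNA of lavaged mouse lung was hybridised to 2-colour Agilent arrays, each sample a pool of 2 RNA samples. The deposited scanner files hold intensity per spot, written with Agilent Feature Extraction 12.0.2.2 per the file headers; the authors' own values, log2 and quantile normalized, are in a deposited table that served as an alternative. In the study's methods low-quality RNA was left out and dye and array effects were adjusted with ComBat before limma. Here the median foreground intensity of each sample's channel was log2 transformed and quantile normalized, without background correction. The 3671 control spots of 62976 were left out, spots of a probe and probes of a gene were averaged, and 32994 of 56605 probes matched a gene in the RefSeq table, giving 22911 genes. Of the probes 23611 had no match and were not used.

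A linear model with 26 groups, dye, slide and array position was fitted to all 89 samples with limma 3.58.1 in R 4.3.3, by its moderated test with Benjamini-Hochberg adjustment over all genes. A call needed an adjusted p under 0.05 and a log2 difference over 0.58 in size. Slides, 6 in number, stand as the labels and headers give them. A simulation with 22851 genes drew independent noise from the fitted model, without array correlation or scaling error, so it tested only the calculation. In it the comparison of CuO PEG with core CuO recovered 94 of 100 genes changed by 1 in log2. It recovered 98 of 100 changed by 1.5, with 1 false call, and the challenge difference gave 6 false calls. Recovery in the measured samples was not tested. In those samples 89 genes differed by more than 1 in log2, and 43 lower and 2 higher genes of these were called. Genes named were the 12 largest called rises and falls without overlap between groups (unnamed loci left out), 6 genes the study measured by PCR, and of each list up to 4 called members of smallest p, or else 2 members; others were chosen after their values were seen. Members and lists were chosen with earlier results of these data known. Alternatives covered background, scaling, dim probes, the deposited table, slide and array terms, a replicate block, PBS samples only and each replicate left out. No label ties a sample to single animals beyond its pool. The p-values rest on the spread within all 26 groups of the fit, and not on that of the compared samples alone. Samples that shared an array were treated as independent, and the number of arrays limits the precision. Promoter windows came from RefSeq (GRCm38.p6), while the array grid was designed on another build, so no array coordinates are given.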

Additional observations from a re-analysis of the deposited data

Results flagged for a closer look

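Within groups of 4 to 10 samples, 15 of 164 gene and group pairs had an extreme sample whose gap to its nearest neighbour, divided by the group's range, passed Dixon's 95% critical value, and chance flags about 1 in 20. In CuO PEG these were replicate 1 for Igfbp3 (low, 0.91), Clec4d (high, 0.868) and Foxj1 (high, 0.831), replicate 2 for Nars2 (high, 0.955) and Ednrb (low, 0.8292), and replicate 4 for Lcn2 (low, 0.855). In PBS controls they were replicate 1 for Hmox1 (low, 0.645) and Cry2 (high, 0.665), replicate 4 for Igfbp6 (low, 0.696), Ms4a4d (low, 0.595), Saa1 (high, 0.667) and Mt2 (high, 0.600), and replicate 6 for Itih4 (low, 0.616), Muc5b (low, 0.586) and Scgb3a1 (low, 0.664). CuO PEG replicates 1 and 2 shared arrays with PBS replicates 4 and 6 in that order.

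The difference between CuO PEG and core CuO at 10 μg itself differed between OVA and PBS challenge for 42 genes, among them Tgm1 (1.94), Lrg1 (1.55), Mki67 (1.18), Tpx2 (1.03) and Igfbp3 (-1.28), each as the OVA minus the PBS difference in log2. For Tgm1 the PBS difference shrank when core CuO replicate 1 was left out.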

How the results depend on the processing

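CuO PEG minus core CuO at 10 μg gave 244 called genes, and 230 with normexp background correction, 243 with loess, 276 without dim probes, 251 from the deposited table, 284 with array as a random block and 219 with PBS samples only. It gave 6 with median scaling, 24 (2 higher, 22 lower) with dye and array as fixed terms, 1681 with dye only, 590 with slide as a random term, and 77 to 438 with single replicates left out (77 without core CuO replicate 3, 98 and 102 without CuO PEG replicates 4 and 2, 131 without core CuO replicate 2, 438 without CuO PEG replicate 1). The acute phase count of 6 was 2 with median scaling and 3 with array fixed, its median ran from -1.38 to -0.49 over all settings, and the copper count of 2 was 0 with median scaling. CuO PEG minus PBS gave 131 genes, and 13 with median scaling, 209 with dye only and 75 (without CuO PEG replicate 1) to 164 with replicates left out. Core CuO minus PBS gave 838, and 518 with median scaling and 697 to 1061. CuO PEG minus CuO NH3 gave 477, and 96 with median scaling and 352 to 697. After OVA the count of 0 was 1 with array as a random block, 1091 with dye only, 68 with slide random and 0 to 2 with replicates left out. The challenge difference of 42 genes was 0 with median scaling or with array fixed, 24 with loess, 70 without dim probes, 198 with array as a random block, 77 with dye only, 185 with slide random and 0 to 216 with replicates left out. With the replicate number as a block, CuO PEG minus core CuO gave 1471, the comparison after OVA 1155 and the challenge difference 149. In that setting CuO PEG minus PBS gave 980, above the 795 for core CuO minus PBS. Same-numbered samples correlated at -0.211, 0.091 and -0.029. These correlations were taken after dye, slide and position effects were removed, so they cannot show whether the numbers pair samples. Zdhhc22 reversed from 0.85 to -0.51 with dye only and to -0.38 with the replicate block. Of 42 named called genes, 38 lost the call with median scaling, 31 with array fixed and 9 with PBS samples only. The cause of these changes was not tested. Low signal over background limits dim genes: 3 of the 204 lower genes were below background in a whole group. Of the 204, 181 were above background in all 4 CuO PEG samples and 203 in all 3 core CuO samples.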
